A study of Mus musculus with 24 samples.

Results

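The genes described here are 10 markers of pluripotent mouse cells: Dppa2, Dppa3, Dppa4 and Dppa5a, which carry the name developmental pluripotency associated, and Utf1, Tdh, Lin28a, Zscan10, L1td1 and Tcl1. They were listed by name, and not by their values, and their rows were read from a table of normalized read counts for 37315 genes, with symbols, positions and exon lengths from the GENCODE vM21 annotation of mouse build mm10. All 10 were found. The table covers 24 bulk RNA-seq libraries, 2 per population, made from 12 populations of a reprogramming system called PaX. PaX is 1 female embryonic stem cell (ESC) line from a cross of 129S1/SvImJ and CAST/EiJ mice, so the values describe this line and cells made from it. All groups carried the same alleles: X-GFP, a green fluorescent reporter in the Hprt gene of the M. musculus X chromosome; a truncated Tsix gene, which makes that chromosome the one preferentially inactivated upon differentiation; P-RFP, a red reporter driven by the Nanog promoter; and a doxycycline-inducible MKOS cassette (c-Myc, Klf4, Oct4 and Sox2) with the rtTA transactivator in the Sp3 gene. ESCs were grown in serum and LIF without feeders, and neural precursor cells (NPCs) were differentiated from them. Reprogramming cells were NPCs plated on irradiated male mouse embryonic fibroblasts and kept in LIF, ascorbic acid and doxycycline, either without cytokine (control) or with interferon gamma (IFNγ) at 10 ng/ml from day 0 to day 5. Both arms were sampled at day 2 as cells free of the CFSE dye that marked the feeders, at day 5 as SSEA1+ cells, and at day 7 as SSEA1+ cells split by X-GFP into negative, medium and high populations. Day 7 IFNγ cells had therefore been without the cytokine since day 5, and X-GFP was itself a sort criterion at day 7.

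These genes are silent in most somatic tissues and are switched on in pluripotent cells, in early embryos or in the germ line, and they are commonly used to tell late, stable stages of reprogramming from early ones. Dppa2 and Dppa4 are partner chromatin proteins that bind together to promoters of developmental genes, and Dppa3 (Stella) is a maternal factor that protects methylation marks in the early embryo. Dppa5a and L1td1 bind RNA, Lin28a blocks the maturation of let-7 microRNAs, Utf1 is a chromatin-bound transcriptional regulator, Zscan10 is a zinc finger factor of the ESC network, Tdh is the mitochondrial threonine dehydrogenase on which mouse ESCs depend, and Tcl1 is a coactivator of AKT kinases.

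Libraries held between 24746109 and 37056508 reads on genes. The ESC markers fixed for the check of labels summed to 117978 and 115685 normalized counts in the 2 ESC libraries and to 1229 and 835 in the 2 NPC libraries. The NPC markers summed to 807 and 872 in ESCs and 50152 and 45803 in NPCs, so both ends matched their labels. At day 2, 4 Y-linked genes, which the female line lacks and the male feeders carry, summed to 253 and 218 in control and 125 and 223 in IFNγ libraries, and all 4 were at the counting floor in ESCs and NPCs. Genes of fibroblasts did not mark the feeders alone, since 8 of them summed to 30196 and 43108 in NPCs, 61408 and 41396 in control cells of day 2 and 311 and 352 in ESCs. In bulk RNA, fewer cells that express a gene and less of its RNA in each cell cannot be told apart. The libraries of a population are described as independent replicates, without saying whether they came from separate cultures. Every p-value below measures only the spread between those libraries.

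ESCs expressed all 10 genes and NPCs almost only Lin28a. Per kilobase of exon, ESC levels ran over a wide range, from Dppa5a at 71204 ± 2909 (SD, n = 2 here and throughout) through Tdh at 5970 ± 89.3, Tcl1 at 2723 ± 183, L1td1 at 2156 ± 39.2, Dppa3 at 1973 ± 49.4, Lin28a at 1842 ± 0.283, Dppa4 at 949 ± 44.6, Zscan10 at 758 ± 118 and Utf1 at 490.0 ± 52.4 down to Dppa2 at 301 ± 16.9. In NPCs, 7 of the 10 (all but Dppa5a, Tdh and Lin28a) were at the counting floor, 3 reads or fewer in both libraries. Lin28a was the exception: 645 and 377 normalized counts in NPCs, 6.94% ± 2.57 of the ESC mean. Against the floor of 3 reads per library, ESC levels were at least 2464-fold higher for L1td1, at least 1809-fold for Tcl1, at least 780.1-fold for Zscan10, at least 634-fold for Dppa3, at least 568-fold for Dppa4, at least 266-fold for Dppa2 and at least 217-fold for Utf1. Lin28a was 14.9-fold higher in ESCs (log2 difference 3.90 ± 0.24, SE; limma adjusted p = 2.41e-05). All 10 were called higher in ESCs, where 42.2% of all genes tested were; members at the floor in NPCs passed the filter on low values only through the ESC libraries and had to differ, so that count carries no further weight. A call means a Benjamini-Hochberg adjusted p under 0.1 over all genes with a mean above 10, in limma on log2 of the normalized count plus 1, and log2 values below are on that scale.

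**Figure D1:**
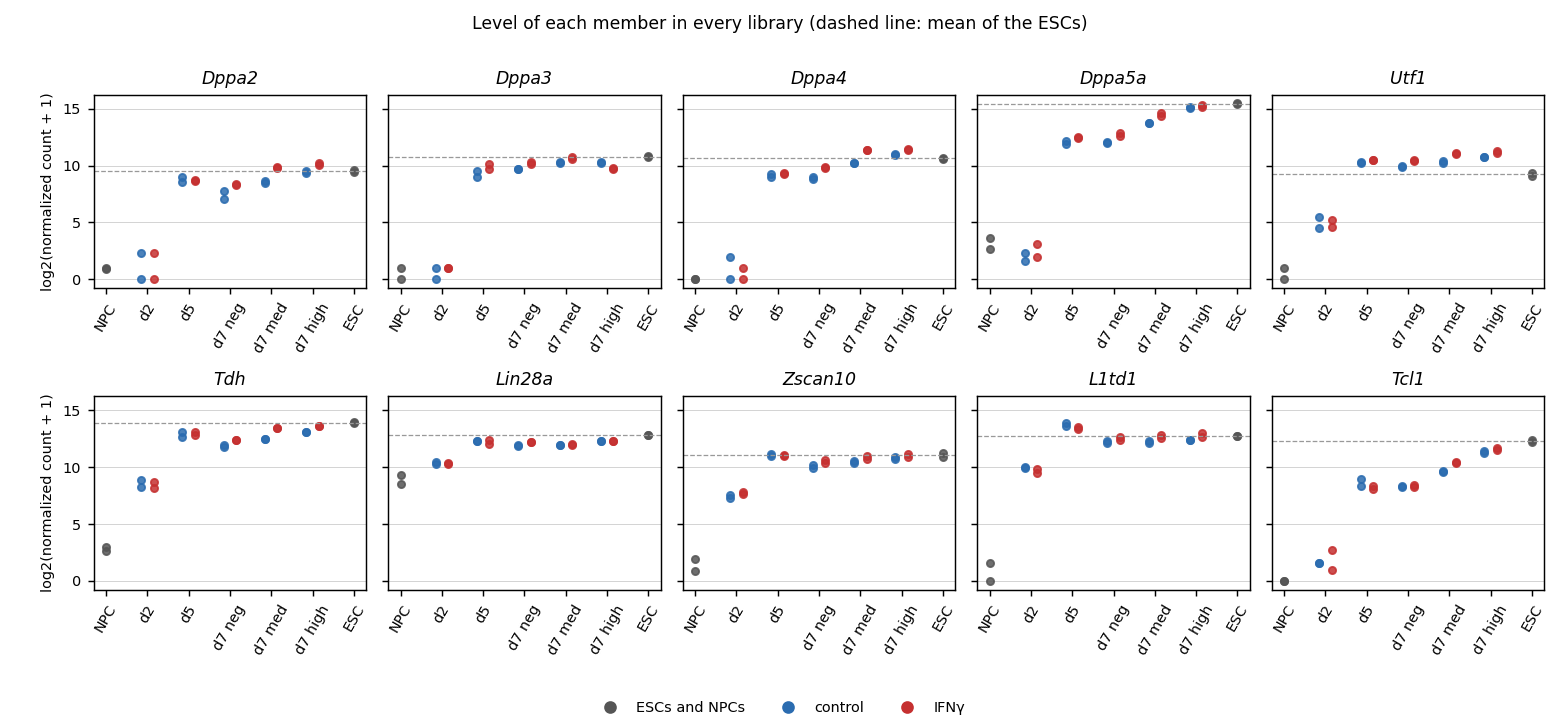
Log2 of the normalized count plus 1 (y axis) of the 10 genes in all 24 libraries, 1 panel per gene, 1 point per library, with populations from NPC through day 2 (d2), day 5 (d5) and the X-GFP populations of day 7 (d7) to ESC along the x axis; a dashed line marks the ESC mean, and control is blue and IFNγ red. NPC and day 2 points lie near the bottom for Dppa2, Dppa3, Dppa4, Dppa5a and Tcl1, whereas Lin28a starts from 645 and 377 normalized counts in NPCs.

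Promoter sequence was read for the members with an entry in the RefSeq promoter table (build GRCm38.p6, 250 bases before to 50 bases after the start): 5 of 10 matched, and Dppa2, Dppa3, Dppa4, Dppa5a and Tdh did not. Those of 4 genes are printed because their genes follow 4 different courses below: Utf1 exceeded its ESC level by day 5, L1td1 was highest at day 5, Lin28a was already present in NPCs, and Tcl1 was the last to return. Each runs 5′ to 3′ on the strand of its gene, with motif matches in capitals (GC box GGGCGG or its reverse complement CCGCCC, and the STAT-type palindrome TTCNNNGAA).
Utf1, chr7:139943606-139943905, plus strand: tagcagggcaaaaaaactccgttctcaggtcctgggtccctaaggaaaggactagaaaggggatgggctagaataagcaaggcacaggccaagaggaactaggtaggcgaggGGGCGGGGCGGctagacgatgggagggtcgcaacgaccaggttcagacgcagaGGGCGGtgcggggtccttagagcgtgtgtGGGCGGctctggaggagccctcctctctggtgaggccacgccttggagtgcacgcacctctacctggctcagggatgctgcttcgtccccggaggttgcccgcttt
L1td1, chr4:98726504-98726803, plus strand: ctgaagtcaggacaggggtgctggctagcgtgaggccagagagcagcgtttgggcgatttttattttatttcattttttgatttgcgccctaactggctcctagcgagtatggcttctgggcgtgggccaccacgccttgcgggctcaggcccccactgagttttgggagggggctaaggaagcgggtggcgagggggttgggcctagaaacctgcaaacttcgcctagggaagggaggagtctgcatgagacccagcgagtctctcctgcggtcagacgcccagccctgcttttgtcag
Lin28a, chr4:134018767-134019066, minus strand: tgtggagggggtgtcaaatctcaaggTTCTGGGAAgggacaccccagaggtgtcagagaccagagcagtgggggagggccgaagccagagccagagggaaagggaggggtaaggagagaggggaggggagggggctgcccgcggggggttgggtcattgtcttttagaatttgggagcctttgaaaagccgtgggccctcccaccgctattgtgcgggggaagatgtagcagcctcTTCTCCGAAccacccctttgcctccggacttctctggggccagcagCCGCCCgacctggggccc
Tcl1, chr12:105222688-105222987, minus strand: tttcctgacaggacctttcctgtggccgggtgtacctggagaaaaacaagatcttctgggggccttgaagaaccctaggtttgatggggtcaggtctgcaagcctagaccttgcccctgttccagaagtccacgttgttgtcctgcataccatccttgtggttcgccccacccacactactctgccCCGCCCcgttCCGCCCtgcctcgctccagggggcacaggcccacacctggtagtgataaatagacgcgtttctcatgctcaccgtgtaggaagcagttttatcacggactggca

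Utf1 held 4 GC boxes, starting 138, 133, 85 and 56 bases before the start, of which the first 2 share 1 base, Tcl1 held 2 on the opposite strand at 64 and 54 bases, and Lin28a held 1 at 32 bases after the start. Of 32851 promoters in the table, 35.7% held a GC box on either strand. TTCNNNGAA, the core recognised by STAT factors, occurred 2 times in the Lin28a promoter, 224 and 14 bases before the start, and 1 time in that of Zscan10 (chr17:23600576-23600875, plus strand), 33 bases before it; 8.3% of all promoters held it. None of the 5 held the octamer ATGCAAAT (1.74% of all promoters), TATAAA (13.6%) or the SOX-type ACAAAG (18.7%). CG dinucleotides numbered 17 in Utf1, 14 in L1td1, 11 in Tcl1, 10 in Lin28a and 4 in Zscan10, against a median of 7 (quartiles 3 and 20) over all promoters. A match describes letters in this window only.

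The members did not return together. As a share of the ESC mean, the median over the 10 genes was 1.36% at day 2 and 55.0% at day 5 in control cells, then 38.4%, 60.3% and 79.9% in X-GFP-negative, -medium and -high cells at day 7. In the IFNγ arm the medians were 1.24%, 55.1%, 61.4%, 89.4% and 92.1%. In the control arm Dppa2, Utf1, Lin28a, Zscan10 and L1td1 had reached 50% of ESCs by day 5, and Dppa3 and Dppa4 first did so in X-GFP-medium cells. Dppa5a, Tdh and Tcl1 first did so in X-GFP-high cells, although Tdh had been just short of it, at 49.6%, at day 5. With IFNγ, the means of Dppa3 and Tdh were past that level at day 5, that of Dppa4 in X-GFP-negative cells and that of Dppa5a in X-GFP-medium cells, while Tcl1 again passed it only in X-GFP-high cells. The IFNγ libraries lay on both sides of 50% for Dppa3 (48.1% and 62.1%), Tdh (47.7% and 58.0%) and Dppa5a (56.6% and 48.2%), as did the control X-GFP-high libraries for Tcl1 (49.1% and 54.2%). Neither Dppa3 nor Tdh was called by limma between the arms at day 5 (limma adjusted p = 0.198 and 0.751). Their log2 differences were 0.63 ± 0.21 and 0.10 ± 0.15 (SE). The Dppa3 libraries of the 2 arms did not overlap and DESeq2 called it (adjusted p = 0.0465), while those of Tdh overlapped. Members at very low levels in day 2 cells also had to differ between day 2 and day 5, where 10 of 10 were called higher (background 34.9%); between those days the sort changed from CFSE-negative to SSEA1+. Of the 5 members that passed the filter at day 2, all 5 (Utf1, Tdh, Lin28a, Zscan10 and L1td1) were called higher than in NPCs (background 31.6%). Utf1, Zscan10 and L1td1 were at the floor in NPCs, and Tdh was at 6.81 and 5.27 normalized counts. They passed the filter only through the day 2 libraries and had to differ, so that count carries no further weight. Only Lin28a could have gone either way. In day 7 X-GFP-negative control cells, 6 members were lower than at day 5 (Dppa2, Utf1, Tdh, Lin28a, Zscan10 and L1td1, background 29.5% lower). Dppa3 was called higher (background 34.2% higher), a call that did not hold under most alternatives, as given below for that gene. Day 5 cells were not split by X-GFP, so time and that sort cannot be told apart in this comparison. Along X-GFP in control cells, 8 members were higher in medium than in negative cells (background 21.9%; Lin28a and L1td1 were not called) and 9 were higher in high than in medium cells (background 31.4%; Dppa3 was not called). In the IFNγ arm 8 were higher and Lin28a lower in medium than in negative cells (background 25.5% higher and 26% lower), and 5 were higher and Dppa3 lower in high than in medium cells (background 17% and 19.8%). Leaving out 1 library ended some of these calls. Between high and medium cells, L1td1 lost its control call without medium control library 1 (0.07 on the log2 scale), Dppa2 lost its IFNγ call without medium library 1 or high library 2 (0.23 and 0.24), and Tdh lost its IFNγ call without any one of the 4 libraries (0.19 to 0.20). Between medium and negative IFNγ cells, Lin28a lost its call without negative library 1 (-0.21) and Zscan10 without medium library 2 (0.24).

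**Figure D2:**
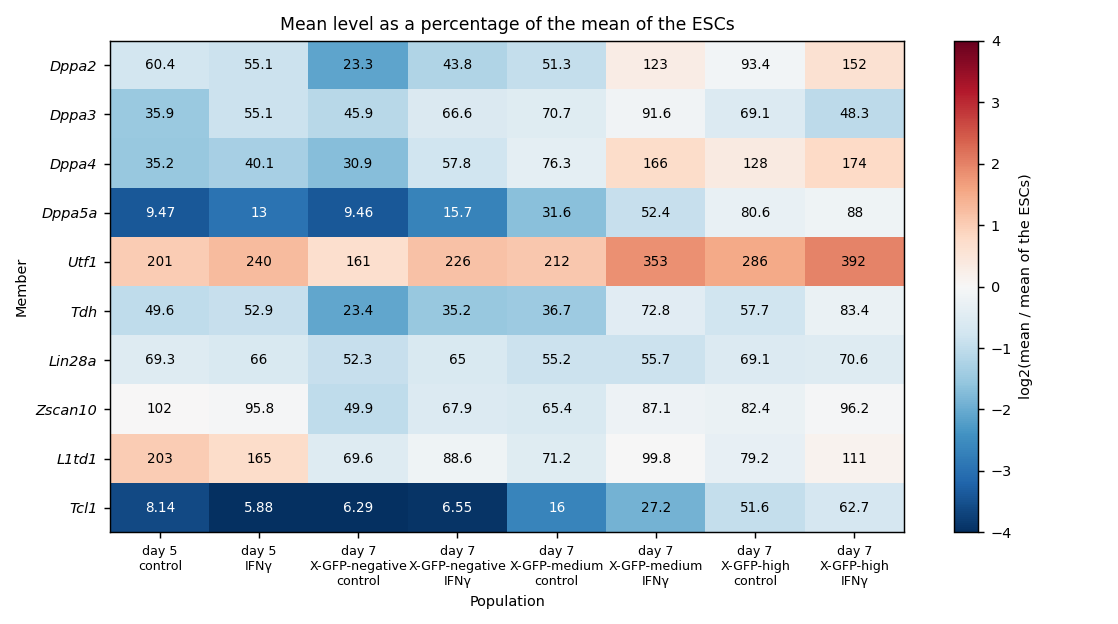
Mean level of each gene as a percent of its ESC mean (rows) in the 8 populations of day 5 and day 7 (columns); the percent is written in each field, and the colour gives the log2 of the ratio to ESCs, blue below and red above. In control X-GFP-high cells every one of the 10 genes is at 50% or more of ESCs, from Tcl1 at 51.6% to Utf1 at 286%; at day 5 the control values run from 8.14% (Tcl1) to 203% (L1td1).

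Few of the 10 genes passed the unpaired test between IFNγ and control cells during the exposure, and most were higher with IFNγ at day 7, 2 days after it was removed. The share of all genes called differed in the same way. It was 1332 of 15697 at day 2 and 330 of 15133 at day 5, against 9617 of 15531 in X-GFP-negative cells. Whether the members' IFNγ effects differed between day 5 and day 7 was not tested. The unpaired test did not pair libraries by replicate number. A fit with a replicate block called more members at day 2 and day 5, as given in the last paragraph. At day 2, 0 of the 5 members tested were called by limma, edgeR or DESeq2 (background 5.03% higher and 3.45% lower), 1 of them (L1td1) had an unadjusted limma p under 0.05, and Dppa2, Dppa3, Dppa4, Dppa5a and Tcl1 were too low to test. At day 5, 1 of 10 was called, Dppa5a, which was higher (background 1.65% higher and 0.535% lower). Dppa3 and Utf1 (higher) and L1td1 (lower) had an unadjusted limma p under 0.05. DESeq2 called 3 members, Dppa3 and L1td1 besides Dppa5a, and 912 of all 15133 genes. In X-GFP-negative cells 9 of 10 rose and Tcl1 was not called (background 31.1% higher and 30.8% lower); the median log2 difference of the members was 0.51, against 0.02 over all genes. In X-GFP-medium cells 9 of 10 rose and Lin28a was not called (background 33.3% and 29.6%), with a median of 0.73 against 0.04. In X-GFP-high cells 7 rose, Dppa3 fell, and Dppa5a and Lin28a were not called (background 18.1% and 20.4%), with a median of 0.36 against 0.03. With 1 fit over all 24 libraries, which estimates the spread from every population, 4 members were called higher in X-GFP-negative and 1 in X-GFP-high cells, near the shares of all genes called higher in that fit (30.3% and 14.5%). With no filter on low values 5 and 1 were called higher, against 6.46% and 1.16% of all genes, silent ones included. Rescaling all libraries to the same total moved the median of all genes in X-GFP-negative cells from 0.02 to 0.17. There too 9 members were called, and of all 15484 genes 6730 were called higher and 3417 lower.

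Summed markers of several other cell types differed between the arms at day 7. Of all genes, 31.1%, 33.3% and 18.1% were called higher with IFNγ in X-GFP-negative, -medium and -high cells, and 30.8%, 29.6% and 20.4% lower. The 8 fibroblast genes summed to 5065 and 4443 in X-GFP-negative control and 1035 and 1025 in IFNγ libraries, 5612 and 5042 against 689.7 and 743 in X-GFP-medium, and 2614 and 2125 against 612 and 686 in X-GFP-high. Of those tested, 1 of 7, 4 of 7 and 1 of 6 were called lower and 1, 2 and 1 higher. The 4 epidermal genes summed to 3183 and 3093 against 671 and 1142, 2013 and 2183 against 307 and 671 and 948 and 815 against 133 and 221, and each one tested (3, 2 and 1) was lower with IFNγ. Macrophage genes, 2 of 4 of which could be tested and were lower in every day 7 population, summed to 2181 and 1870.0 in control and 1216 and 996 in IFNγ X-GFP-medium cells. Primitive endoderm genes went the other way, from 734 and 752 to 1817 and 1897 in X-GFP-negative cells with 5 of 6 higher, and from 666 and 656 to 1145 and 1236 in X-GFP-medium cells with 4 of 6 higher and 1 lower. In X-GFP-high cells they summed to 530.0 and 525 in control and 546 and 521 in IFNγ libraries, with 2 higher and 2 lower. The 8 NPC markers summed to 5198 and 5115 in control and 5794 and 5949.9 in IFNγ libraries of X-GFP-negative cells, with 3 of 7 tested higher. In X-GFP-medium cells they summed to 3316 and 3592 against 2147 and 2434, and in X-GFP-high cells to 2139 and 2107 against 1421 and 1504, with 1 of 4 tested higher and 2 lower in both. The primed epiblast sum lay between 3299 and 4487 in all day 7 libraries, and all 4 Y-linked genes were at the floor in each day 7 population except X-GFP-medium IFNγ cells, where Eif2s3y and Kdm5d were. The part of these genes in the members' IFNγ differences was not tested.

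**Figure D3:**
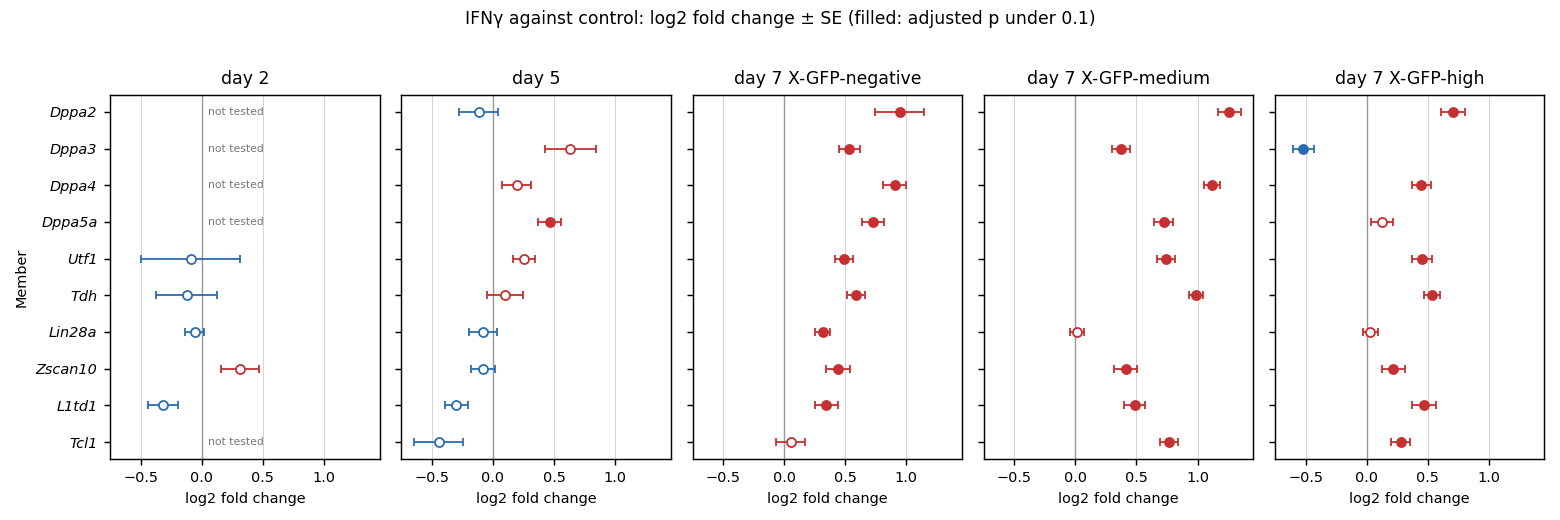
Log2 difference between IFNγ and control cells for each gene (x axis, points, with bars of 1 SE) in the population named above each panel, filled where called, red where higher and blue where lower. At day 7 the points lie right of 0 for most genes, with Dppa3 at 0.53, 0.37 and -0.52 in X-GFP-negative, -medium and -high cells.

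Dppa2 (ENSMUSG00000072419; chr16:48303908-48319723, plus strand) and Dppa4 (ENSMUSG00000058550; chr16:48283733-48294237, plus strand), the heterodimeric chromatin pair, are neighbours on the same strand with 9670 bases between them. Dppa2 stood at 767 and 708 normalized counts in ESCs and 0.972 and 0.878 in NPCs. It read 4.07 and 0 at day 2 and 385 and 504 at day 5 in control cells, and then 132 and 211 (X-GFP-negative), 363 and 394 (medium) and 641 and 735 (high) at day 7. Its libraries did not overlap between the 3 day 7 populations. Dppa4 stood at 1630.3 and 1525 in ESCs and 0 and 0 in NPCs. It read 0 and 2.98 at day 2 and 511 and 600.3 at day 5 in control cells, and then 461 and 513 (X-GFP-negative), 1175 and 1232 (medium) and 1908 and 2122 (high) at day 7. Both were absent or nearly so until day 2, and in X-GFP-high control cells Dppa4 lay above both ESC libraries while Dppa2 overlapped them. In X-GFP-negative cells Dppa2 was lower than at day 5 by 1.40 on the log2 scale (SE 0.23, limma adjusted p = 0.00146). Dppa4 differed by -0.19 ± 0.12 (limma adjusted p = 0.223). The ratio of Dppa4 to Dppa2, per kilobase of exon, was 1.85 ± 0.141 at day 5 and 4.36 ± 1.12 in X-GFP-negative cells, where the libraries gave 5.15 and 3.57, against 3.15 ± 0.0288 in ESCs and 4.31 ± 0.0926 in X-GFP-high cells.

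IFNγ libraries of Dppa2 held 0 and 3.96 at day 2 and 419 and 394 at day 5. Day 7 libraries held 310.4 and 336 (X-GFP-negative), 861 and 956 (medium) and 1073 and 1174 (high). The Dppa2 libraries of day 5 overlapped those of control cells, and those of day 7 did not. IFNγ libraries of Dppa4 held 0.935 and 0 at day 2 and 643 and 623 at day 5. Those of day 7 held 931 and 893 (X-GFP-negative), 2625 and 2606 (medium) and 2664 and 2829 (high). These lay above all Dppa4 control libraries of the same day and population from day 5 on. Dppa2 was higher by 0.95 ± 0.20 in negative, 1.26 ± 0.10 in medium and 0.71 ± 0.10 in high cells (log2 ± SE; limma adjusted p = 0.00344, 4.24e-06 and 0.000251). Dppa4 was higher by 0.91 ± 0.09, 1.12 ± 0.06 and 0.45 ± 0.08 (limma adjusted p = 5.5e-05, 1.01e-06 and 0.0012). In X-GFP-medium cells both IFNγ libraries of each gene lay above both ESC libraries and both control libraries below them, at 123% ± 9.08 for Dppa2 and 166% ± 0.888 for Dppa4, against 51.3% ± 3.04 and 76.3% ± 2.54 in control cells. Morc1, a germ-line chromatin gene 111513 bases beyond Dppa2 and chosen after its values were seen, was higher by 1.13 ± 0.15, 1.02 ± 0.08 and 0.39 ± 0.08 in the 3 populations (limma adjusted p = 0.000224, 4.23e-06 and 0.00319).

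Dppa3 (ENSMUSG00000046323; chr6:122626410-122630272, plus strand) stood at 1791 and 1729 normalized counts in ESCs and 0.972 and 0 in NPCs. It read 1.02 and 0 at day 2 and 507 and 758 at day 5 in control cells, and then 807 and 808 (X-GFP-negative), 1256 and 1234 (medium) and 1256 and 1178 (high) at day 7. Its control level rose between X-GFP-negative and -medium cells (log2 difference 0.62 ± 0.07; limma adjusted p = 5.01e-05). From day 5 to X-GFP-negative cells the difference was 0.38 ± 0.17 (limma adjusted p = 0.0918), and it rested on 1 library: without day 5 control library 1 it was 0.0924 (limma adjusted p = 0.502). That call was also lost without either X-GFP-negative library (limma adjusted p = 0.23 and 0.222), by edgeR and DESeq2 (adjusted p = 0.153 and 0.145), after rescaling to equal totals (0.164), with no filter and in the fit over all libraries. Control medium and high cells did not differ past the threshold (-0.03 ± 0.07; limma adjusted p = 0.689), and no population exceeded ESCs. IFNγ libraries of Dppa3 held 0.935 and 0.989 at day 2 and 847 and 1093 at day 5. Day 7 libraries held 1249 and 1097 (X-GFP-negative), 1683 and 1543 (medium) and 824 and 876 (high). The direction of the IFNγ difference turned with X-GFP: higher by 0.53 ± 0.09 in negative and 0.37 ± 0.07 in medium cells, lower by 0.52 ± 0.09 in high cells (log2 ± SE; limma adjusted p = 0.000841, 0.00158 and 0.000839). Both X-GFP-high IFNγ libraries lay below both control ones, at 48.3% ± 2.1 of ESCs against 69.1% ± 3.12. The difference between the effects in high and medium cells was itself called, -0.89 ± 0.10 (limma adjusted p = 0.00289; background 8.06% lower and 4.71% higher). The fall was also called by edgeR and DESeq2 on the recovered whole reads and without any single library, but not in 1 fit over all 24 libraries (adjusted p = 0.19) or with no filter on low values (adjusted p = 0.115).

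The genes beside Dppa3 on chromosome 6, chosen after their values were seen, did not share the turn. Gdf3, a TGF-beta family ligand 16322 bases before it, was higher with IFNγ by 1.07 ± 0.08, 0.76 ± 0.08 and 0.33 ± 0.08 in X-GFP-negative, -medium and -high cells (limma adjusted p = 9.54e-06, 3.88e-05 and 0.00929). Nanog, the pluripotency factor 77216 bases after it, was higher by 0.34 ± 0.07, 0.39 ± 0.06 and 0.26 ± 0.07 (limma adjusted p = 0.00377, 0.000292 and 0.014). Of 4 DNA methylation factors linked to Dppa3, 4, 3 and 3 were higher with IFNγ in negative, medium and high cells and 0 lower (background 31.1%, 33.3% and 18.1% higher). Uhrf1, the partner of Dnmt1 whose access to chromatin Dppa3 limits, was higher by 0.92 ± 0.10, 0.79 ± 0.08 and 0.40 ± 0.07, and Trim28, a corepressor, by 0.74 ± 0.06, 0.79 ± 0.06 and 0.46 ± 0.08 (limma adjusted p between 4.44e-06 and 0.0014). Dnmt1, the maintenance methyltransferase, was called only in X-GFP-negative cells (0.25 ± 0.07; limma adjusted p = 0.013), with 0.13 ± 0.08 and 0.10 ± 0.07 in the others. Reads of the pseudogene Dppa3-ps can share sequence with Dppa3. Its row held 179 and 181 in ESCs and differed by 0.53 ± 0.26, 0.22 ± 0.18 and -0.42 ± 0.20 with IFNγ, in the same directions but without passing the test (limma adjusted p = 0.108, 0.34 and 0.129).

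Dppa5a (ENSMUSG00000060461; chr9:78367052-78368177, minus strand), a KH-domain RNA-binding protein of ESCs, was the most abundant of the 10 per kilobase in ESCs and among the slowest to return. It stood at 45348 and 42802 normalized counts in ESCs and 11.7 and 5.27 in NPCs. It read 4.07 and 1.99 at day 2 and 3848 and 4498 at day 5 in control cells, and then 3978 and 4358 (X-GFP-negative), 13762 and 14135 (medium) and 34547 and 36471 (high) at day 7. Its level at day 7 rose with X-GFP: 9.46% ± 0.61 of ESCs in negative, 31.6% ± 0.598 in medium and 80.6% ± 3.09 in high cells, log2 differences of 1.74 ± 0.06 and 1.35 ± 0.05 (limma adjusted p = 3.86e-08 and 2.38e-11). IFNγ libraries of Dppa5a held 7.48 and 2.97 at day 2 and 5533 and 5950.4 at day 5. Those of day 7 held 7582 and 6281 (X-GFP-negative), 24961 and 21223 (medium) and 41762 and 35824 (high). At day 5 its IFNγ libraries lay above the control ones, by 0.46 ± 0.09 (limma adjusted p = 0.0917), a call that was lost without control library 1 or without IFNγ library 2. It was higher by 0.73 ± 0.09 in X-GFP-negative and 0.72 ± 0.08 in X-GFP-medium cells (limma adjusted p = 0.000163 and 3.67e-05), and its X-GFP-high libraries overlapped (0.12 ± 0.09; limma adjusted p = 0.324). Reads of near-identical copies of this gene elsewhere in the genome could be split or lost in counting, so its level carries that uncertainty.

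Of the 5 KH-domain relatives listed, 2 were expressed enough to test, and both were higher with IFNγ in all 3 day 7 populations (background 31.1%, 33.3% and 18.1%). Khdc3 (Filia) and Ooep, best known from the egg's subcortical complex, are members of this family, and Ooep lies 7931 bases from Dppa5a. Khdc3 stood at 540.5 and 538 in ESCs, 179 and 227 against 861 and 979.9 in X-GFP-negative control and IFNγ cells, 866 and 896 against 2797 and 3342 in medium, and 1807 and 1812 against 3519.9 and 3672 in high cells. These were log2 differences of 2.18 ± 0.13, 1.79 ± 0.09 and 0.99 ± 0.07 (limma adjusted p = 3.74e-06, 5.38e-07 and 1.92e-06), so IFNγ X-GFP-high cells held 667% ± 19.9 of the ESC level. Ooep read 1596 and 1457 in ESCs, 313 and 341 against 703 and 543 in medium and 1377 and 1483 against 1962 and 1758 in high cells, differences of 0.92 ± 0.13 and 0.38 ± 0.08 (limma adjusted p = 0.000208 and 0.0052). For both genes the effect was smaller in high than in medium cells, by 0.80 and 0.54 on the log2 scale (limma adjusted p = 0.00531 and 0.0737).

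**Figure D4:**
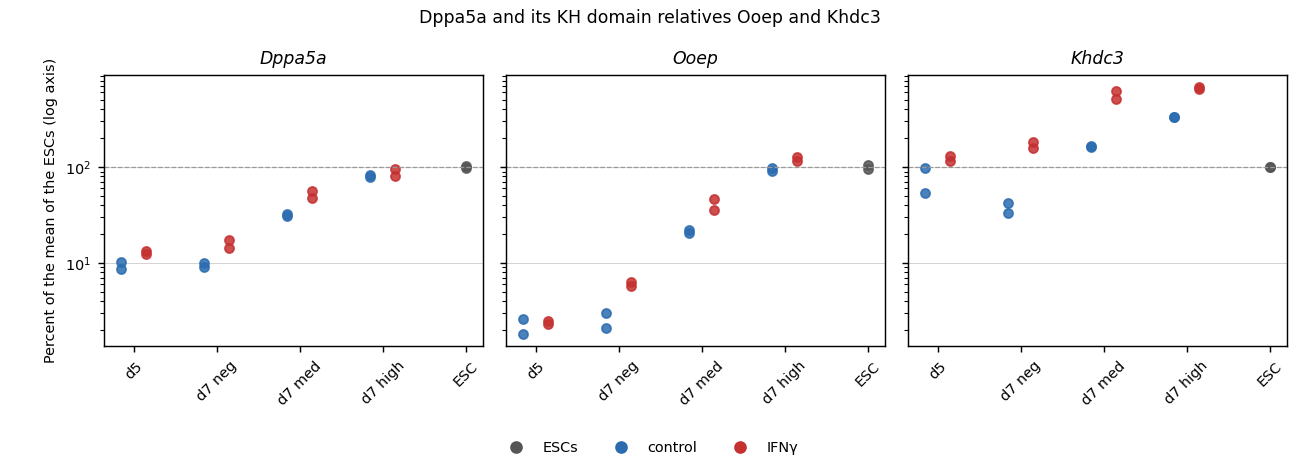
Level of Dppa5a, Ooep and Khdc3 as a percent of the ESC mean (y axis, log scale), 1 point per library, for day 5, the X-GFP populations of day 7 and ESCs along the x axis, with control in blue, IFNγ in red and a dashed line at the ESC mean. Dppa5a lies below the line in every reprogramming library, whereas Khdc3 lies above it in X-GFP-medium and -high cells of both arms and reaches 667% in IFNγ X-GFP-high cells.

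Utf1 (ENSMUSG00000047751; chr7:139943789-139945112, plus strand) overshot ESCs from day 5 on. It stood at 647 and 556 normalized counts in ESCs and 0.972 and 0 in NPCs. It read 43.8 and 21.8 at day 2 and 1177 and 1236 at day 5 in control cells, and then 956 and 976 (X-GFP-negative), 1317 and 1227 (medium) and 1695 and 1742 (high) at day 7. All 8 populations of day 5 and day 7 lay above both ESC libraries, with 201% ± 6.92 of the ESC mean at day 5 and 286% ± 5.5 in control X-GFP-high cells (log2 difference to ESCs 1.52 ± 0.08; limma adjusted p = 1.64e-09). IFNγ libraries of Utf1 held 35.5 and 23.7 at day 2 and 1398 and 1482 at day 5. Day 7 libraries held 1396 and 1318 (X-GFP-negative), 2031 and 2219 (medium) and 2216 and 2495 (high). It was higher with IFNγ by 0.49 ± 0.08, 0.74 ± 0.07 and 0.45 ± 0.08 in negative, medium and high cells (limma adjusted p = 0.000596, 2.34e-05 and 0.00127), which brought X-GFP-high cells to 392% ± 32.8 of ESCs. At day 5 its IFNγ libraries were above the control ones without passing the unpaired test (0.25 ± 0.09, limma adjusted p = 0.207).

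Zscan10 (ENSMUSG00000023902; chr17:23600856-23611019, plus strand) overlapped the ESC libraries at day 5 and was lower in X-GFP-negative cells. It stood at 2404 and 1928 in ESCs and 2.92 and 0.878 in NPCs. It read 182 and 156 at day 2 and 2052 and 2355 at day 5 in control cells, and then 1004 and 1157 (X-GFP-negative), 1326 and 1505 (medium) and 1706 and 1864 (high) at day 7. X-GFP-negative cells lay below all day 5 and ESC libraries, lower than day 5 by 1.03 on the log2 scale (limma adjusted p = 0.000145). IFNγ libraries of Zscan10 held 222 and 198 at day 2 and 2179 and 1972 at day 5. Those of day 7 held 1364 and 1576 (X-GFP-negative), 1734 and 2039 (medium) and 1896 and 2269 (high). The IFNγ difference was 0.44 ± 0.10, 0.41 ± 0.09 and 0.22 ± 0.09 (limma adjusted p = 0.00452, 0.00373 and 0.0961); the last call was lost without control library 1, control library 2 or IFNγ library 2.

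Tdh (ENSMUSG00000021953; chr14:63492347-63509092, minus strand) begins the breakdown of threonine to glycine and acetyl-CoA. It stood at 15447 and 15777 normalized counts in ESCs and 6.81 and 5.27 in NPCs. It read 463 and 298 at day 2 and 6671 and 8806 at day 5 in control cells, and then 3432 and 3887 (X-GFP-negative), 5776 and 5684 (medium) and 9038 and 8966 (high) at day 7. It was called above NPCs at day 2 (log2 difference 5.73 ± 0.31, limma adjusted p = 7.38e-05). X-GFP-negative cells were lower than day 5 cells by 1.07 on the log2 scale (limma adjusted p = 0.000279), and no population reached the ESC libraries. IFNγ libraries of Tdh held 409 and 284 at day 2 and 7455 and 9054 at day 5. Day 7 libraries held 5465 and 5520.3 (X-GFP-negative), 11324 and 11401 (medium) and 12995 and 13039.6 (high). It was higher with IFNγ by 0.59 ± 0.07, 0.99 ± 0.05 and 0.53 ± 0.06 (limma adjusted p = 0.000141, 8.21e-07 and 0.000106). The effect was larger in medium than in negative cells by 0.40 ± 0.09 (limma adjusted p = 0.019; background 7.31% higher and 8.36% lower) and smaller in high than in medium cells by 0.46 ± 0.07 (limma adjusted p = 0.00732); both differences share the X-GFP-medium libraries. After rescaling to equal totals the first was 0.23 (limma adjusted p = 0.118) and no longer called. The annotation places the antisense gene Gm17232 over Tdh, and as the strand setting of the counting is not given in the sources used here, reads of the antisense gene cannot be told apart from those of Tdh.

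Of 13 genes of threonine, glycine and serine metabolism, 12 were higher in ESCs than in NPCs and 0 lower (background 42.2% higher). With IFNγ, negative cells had 7 higher and 3 lower (background 31.1% and 30.8%), medium cells 8 and 3 (33.3% and 29.6%), and high cells 7 and 1 (18.1% and 20.4%). Gldc, the glycine decarboxylase, was higher by 0.19 ± 0.07, 0.57 ± 0.07 and 0.37 ± 0.07, and Mthfd1, a folate enzyme, by 0.78 ± 0.07, 0.85 ± 0.06 and 0.32 ± 0.07 (limma adjusted p between 2.44e-06 and 0.0376). Psat1, the phosphoserine aminotransferase, was called only in X-GFP-high cells (0.25 ± 0.07; limma adjusted p = 0.0188), with -0.09 ± 0.06 and -0.10 ± 0.06 in the others. Gcat, the next enzyme after Tdh and chosen after its values were seen, went the other way. It was lower by 0.43 ± 0.07 and 0.22 ± 0.07 in negative and medium cells (limma adjusted p = 0.00085 and 0.015) and differed by -0.11 ± 0.07 in high cells (limma adjusted p = 0.26). Per kilobase of exon, the ratio of Tdh to Gcat went from 1.47 ± 0.132 to 2.97 ± 0.147 in negative, from 2.25 ± 0.0244 to 5.2 ± 0.223 in medium and from 3.43 ± 0.115 to 5.37 ± 0.197 in high cells with IFNγ, against 4.64 ± 0.222 in ESCs and 0.00432 ± 0.000301 in NPCs. The groups did not overlap in any of the 3 populations, and the ratios themselves were not tested.

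Lin28a (ENSMUSG00000050966; chr4:134003330-134018841, minus strand) had the narrowest range of the 10 over the 12 populations. It stood at 7359 and 7361 normalized counts in ESCs and 645 and 377 in NPCs. It read 1376 and 1255 at day 2 and 5028 and 5171 at day 5 in control cells, and then 3719 and 3977 (X-GFP-negative), 4040.2 and 4091 (medium) and 5132 and 5039 (high) at day 7. From NPCs to day 2 it rose 2.66-fold (log2 difference 1.41 ± 0.24; limma adjusted p = 0.00346), and at day 7 it remained between 52.3% and 69.1% of ESCs in control cells. IFNγ libraries of Lin28a held 1311 and 1219 at day 2 and 5445 and 4267 at day 5. Those of day 7 held 4845 and 4728 (X-GFP-negative), 4063 and 4133 (medium) and 5183 and 5209 (high). It was higher with IFNγ in X-GFP-negative cells by 0.32 ± 0.06 (limma adjusted p = 0.00243), with 0.01 ± 0.06 in medium and 0.03 ± 0.06 in high cells (limma adjusted p = 0.879 and 0.756). The effect in medium cells was below that in negative cells by 0.30 ± 0.08 (limma adjusted p = 0.0328), a call lost without X-GFP-negative control library 1 or either X-GFP-medium control library (limma adjusted p = 0.109, 0.112 and 0.134). The annotation places Gm13061 on the other strand over Lin28a, so the limit given for Tdh holds here too.

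The 13 genes found of the let-7 pathway list (LIN28 partners, microRNA processing factors and let-7 targets) split evenly between ESCs and NPCs, with 6 higher and 6 lower. Of all 15911 genes tested there, 6714 were higher and 6905 lower. With IFNγ, X-GFP-negative cells had 6 higher and 4 lower (background 31.1% and 30.8%), medium cells 6 and 3 (33.3% and 29.6%), and high cells 3 and 3 (18.1% and 20.4%). Trim71, a let-7 target of the early embryo, was higher by 0.37 ± 0.06, 0.65 ± 0.06 and 0.32 ± 0.07 (limma adjusted p = 0.0011, 1.32e-05 and 0.00552). The RNA-binding proteins Igf2bp1 and Igf2bp2 differed in direction in X-GFP-negative cells, 0.17 ± 0.07 and -0.43 ± 0.06 (limma adjusted p = 0.0576 and 0.000205). Lin28b, the paralog of Lin28a and chosen after its values were seen, was lower in ESCs than in NPCs, 2069 and 2175 against 3674 and 2583 normalized counts (log2 difference -0.54 ± 0.16; limma adjusted p = 0.022). The ratio of Lin28a to Lin28b per kilobase of exon was 0.365 ± 0.0474 in NPCs, 1.94 ± 0.292 at day 2, 5.73 ± 0.103 at day 5, 7.67 ± 0.283, 9.01 ± 0.507 and 13 ± 1.28 along X-GFP in control cells, and 7.87 ± 0.279 in ESCs. Control X-GFP-high libraries (13.9 and 12.1) exceeded both ESC libraries (8.07 and 7.68).

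**Figure D5:**
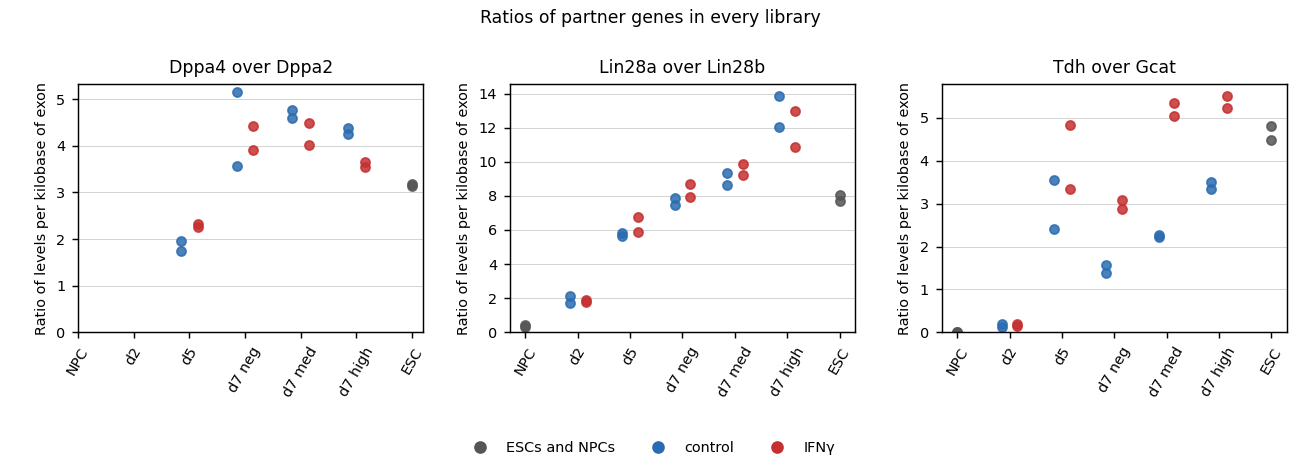
Ratios of levels per kilobase of exon (y axis, linear from 0) for Dppa4 over Dppa2, Lin28a over Lin28b and Tdh over Gcat, 1 point per library, populations along the x axis, control in blue and IFNγ in red. Dppa4 over Dppa2 is drawn from day 5 on and in ESCs, since both genes are near 0 before; Tdh over Gcat is higher in the IFNγ than in the control libraries of each day 7 population.

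L1td1 (ENSMUSG00000087166; chr4:98726734-98738480, plus strand), an RNA-binding protein derived from a LINE-1 element, peaked at day 5. It stood at 6930.0 and 6754 normalized counts in ESCs and 1.94 and 0 in NPCs. It read 1062 and 965 at day 2 and 12817 and 14981 at day 5 in control cells, and then 4485 and 5045 (X-GFP-negative), 4584 and 5158 (medium) and 5355 and 5483 (high) at day 7. Against the floor in NPCs, day 2 cells were at least 365-fold higher, day 5 cells reached 203% ± 22.4 of ESCs, and X-GFP-negative cells were lower than day 5 cells by 1.54 on the log2 scale (limma adjusted p = 3.52e-05). IFNγ libraries of L1td1 held 911 and 723 at day 2 and 11810.4 and 10726 at day 5. Day 7 libraries held 5506 and 6621 (X-GFP-negative), 6208 and 7452 (medium) and 6636 and 8494 (high). At day 7 it was higher with IFNγ by 0.34 ± 0.09, 0.48 ± 0.09 and 0.47 ± 0.10 (limma adjusted p = 0.0118, 0.00118 and 0.00383). At day 2 and day 5 its IFNγ libraries were the lower ones, without passing the unpaired test (-0.32 ± 0.12 and -0.30 ± 0.09, limma adjusted p = 0.21 and 0.186).

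Tcl1 (ENSMUSG00000041359; chr12:105216750-105222793, minus strand) was the last of the 10 to return. It stood at 5262 and 4784 normalized counts in ESCs and 0 and 0 in NPCs. It read 2.04 and 1.99 at day 2 and 332 and 487 at day 5 in control cells, and then 307 and 325 (X-GFP-negative), 789 and 819 (medium) and 2467 and 2721 (high) at day 7. Its share of the ESC level went from 6.29% ± 0.252 in X-GFP-negative to 16% ± 0.424 in medium and 51.6% ± 3.58 in high control cells, log2 steps of 1.34 ± 0.09 and 1.69 ± 0.07 (limma adjusted p = 1.59e-06 and 4.92e-11), the widest gradient along X-GFP together with that of Dppa5a. IFNγ libraries of Tcl1 held 5.61 and 0.989 at day 2 and 272 and 319 at day 5. Those of day 7 held 305 and 353 (X-GFP-negative), 1348 and 1387 (medium) and 3302 and 3000.2 (high). In X-GFP-negative cells control and IFNγ libraries overlapped (0.05 ± 0.12; limma adjusted p = 0.717), whereas it was higher by 0.77 ± 0.07 in medium and 0.28 ± 0.08 in high cells (limma adjusted p = 1.7e-05 and 0.0185); the last call was lost without control library 1. The effect in medium cells exceeded that in negative cells by 0.71 ± 0.13 (limma adjusted p = 0.00856).

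Akt1 and Akt2, kinases of the family that TCL1 binds, did not rise with Tcl1. With IFNγ, Akt1 differed by -0.13 ± 0.07, -0.70 ± 0.08 and -0.47 ± 0.08 in negative, medium and high cells (limma adjusted p = 0.134, 4.16e-05 and 0.00155). Akt2 was lower in each of them, with -0.43 ± 0.06, -0.36 ± 0.06 and -0.34 ± 0.07 (limma adjusted p = 0.000389, 0.000817 and 0.00552). Mtcp1, a TCL1 relative, was called higher in medium cells. Akt1 and Akt2 were also lower in ESCs than in NPCs, by log2 differences of -2.11 ± 0.09 and -0.60 ± 0.08 (limma adjusted p = 7.51e-06 and 0.000696).

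Among 10 genes of the naive pluripotency network, 8, 10 and 7 rose with IFNγ in X-GFP-negative, -medium and -high cells and 0 fell (background 31.1%, 33.3% and 18.1% higher). The effect was lower in high than in medium cells for 8 of them (background 8.06%). Esrrb, an orphan nuclear receptor, rose by 0.74 ± 0.08, 0.84 ± 0.06 and 0.31 ± 0.07, and Sall4, a zinc finger factor, by 0.56 ± 0.07, 0.44 ± 0.06 and 0.19 ± 0.07 (limma adjusted p between 2.38e-06 and 0.0521). Tfcp2l1 rose by 0.61 ± 0.06 and 0.89 ± 0.06 in negative and medium cells (limma adjusted p = 4.09e-05 and 2.87e-06) and was not called in high cells (0.26 ± 0.11; limma adjusted p = 0.108). Genes of the 2-cell-like state, which Dppa2, Dppa4 and Dppa3 are known to favour, were mostly too low to test. Of 15 found, 1 could be tested between the arms in X-GFP-negative and -medium cells and 2 in high cells. Usp17le, the one tested in all 3, held 11.9 and 10.3 and 30.2 and 11.5 normalized counts in medium control and IFNγ cells (limma adjusted p = 0.222; adjusted p = 0.45 in negative and 0.626 in high cells). Tmem92 differed by 0.98 ± 0.42 in high cells (limma adjusted p = 0.102). Against ESCs, 3 genes of this list could be tested in control and 5 in IFNγ X-GFP-high cells. Usp17le was called higher in both (background 37.9% and 33.2%) and Zscan4d lower in both (37.8% and 33.9%). Usp17le was also called higher in high than in medium control cells, by 1.02 on the log2 scale (background 31.4%).

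Set against X-GFP-medium cells, the log2 IFNγ effect in X-GFP-high cells was lower for 6 of 10 members (Dppa2, Dppa3, Dppa4, Dppa5a, Tdh and Tcl1) and higher for 0 (background 8.06% lower and 4.71% higher), by 0.55, 0.89, 0.67, 0.60, 0.46 and 0.49. For Dppa3 the effect changed sign, from 0.37 in medium to -0.52 in high cells. Against X-GFP-negative cells, the effect in medium cells was larger for Tdh and Tcl1, smaller for Lin28a and not called for the other 7 (background 7.31% higher and 8.36% lower), with the limits given above for Tdh and Lin28a; in the fit over all libraries 0 were called. Without X-GFP-medium control library 1, or without X-GFP-high control library 2, 3 of the 6 were called (Dppa3, Dppa4 and Tdh), and in 1 fit over all 24 libraries 0 were. Utf1, Lin28a, Zscan10 and L1td1 gave -0.29 ± 0.11, 0.02 ± 0.07, -0.19 ± 0.15 and -0.01 ± 0.16 (limma adjusted p = 0.135, 0.906, 0.468 and 0.968).

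How near the most advanced cells came to ESCs differed by gene. In control X-GFP-high cells 2 members were above ESCs (Dppa4 and Utf1; background 37.9%), 7 below (background 37.8%) and Dppa2 was not called. In IFNγ X-GFP-high cells 3 were above (Dppa2, Dppa4 and Utf1; background 33.2%), 5 below (Dppa3, Dppa5a, Tdh, Lin28a and Tcl1; background 33.9%), and Zscan10 and L1td1 were not called; both comparisons share the ESC libraries. The call of Zscan10 below ESCs in control cells was lost without ESC library 1 or X-GFP-high library 1, and that of Dppa5a in IFNγ cells without either ESC library or X-GFP-high library 2. In IFNγ cells these shares of members are of the order of the background, so they do not set the 10 genes apart from others. In control cells the share below ESCs was above the background, with a median log2 difference of -0.32 against 0.0035 over all genes. In 1 fit over all 24 libraries 4 of the 10 members were called there, against 11302 of all 16247 genes. A difference of the 10 genes from others was not tested. Side by side, control and IFNγ X-GFP-high cells held 93.4% ± 9.02 and 152% ± 9.73 of the ESC mean for Dppa2, 128% ± 9.6 and 174% ± 7.39 for Dppa4, 80.6% ± 3.09 and 88% ± 9.53 for Dppa5a, and 51.6% ± 3.58 and 62.7% ± 4.24 for Tcl1. The same pairs were 57.7% ± 0.327 and 83.4% ± 0.201 for Tdh, 69.1% ± 0.894 and 70.6% ± 0.244 for Lin28a, 82.4% ± 5.16 and 96.2% ± 12.2 for Zscan10, and 79.2% ± 1.33 and 111% ± 19.2 for L1td1. Dppa3, at 69.1% ± 3.12 and 48.3% ± 2.1, was the only member further below ESCs with IFNγ than without it in these cells.

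Neighbouring ranks were often not separable. Ordering the 12 populations by level gave 11 steps per gene, of which the libraries overlapped in 5 for Dppa2, Dppa3 and Lin28a, 3 for Dppa4, Utf1 and Tdh, 4 for Dppa5a, L1td1 and Tcl1, and 6 for Zscan10. ESCs held the highest level of Dppa3, Dppa5a, Tdh, Lin28a and Tcl1, IFNγ X-GFP-high cells that of Dppa2, Dppa4 and Utf1, and day 5 control cells that of Zscan10 and L1td1; for Zscan10, day 5 control and ESC libraries overlapped. The coefficient of variation of the 2 libraries had a median of 6.45% (0.0154 to 37.1%) over the 99 combinations of gene and population with a mean of at least 100.

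Over the 12 population means on the log2 scale, Pearson's r between members ran from 0.708 to 0.994 (median 0.940 over 45 pairs), a description in which all pairs share libraries and the step from NPCs to day 5. Over the 6 day 7 populations it ran from -0.122 (Dppa3 and Lin28a) to 0.998 (median 0.833). Of 13844 genes that reached 100 normalized counts in some population, the one most like each member over the 12 populations was Calcoco2 for Dppa2 (r = 0.9967) and Dppa4 (0.9973), the pseudogene Dppa3-ps for Dppa3 (0.9989) followed by Oas1d (0.9964), Esrrb for Dppa5a (0.9969), Tep1 for Utf1 (0.9953), Gdf3 for Tdh (0.9954), Wfdc2 for Lin28a (0.9948), Frrs1 for Zscan10 (0.9956), Mfsd10 for L1td1 (0.9957) and Klf2 for Tcl1 (0.9947). The average of the 10 members was most like Nodal (0.9969), Fgf4 (0.9967) and Fbxo15 (0.9965), apart from 1 gene without a symbol.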

How the data were processed

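The authors aligned reads of the 24 RNA-seq libraries with STAR to an mm10 genome masked at strain-specific bases, with allele-aware filtering, and counted per gene with HTSeq 0.6.1. The deposited values are normalized counts, that is, reads per gene divided by 1 DESeq2 size factor per library (a signal, not raw counts). Every library's values were whole multiples of 1 step (100.0% of values within 0.02 of a whole read), so the reads could be recovered, 24746109 to 37056508 per library. Every table column was assigned to a sample from its name (0 were left over). Symbols from the deposited annotation (GENCODE vM21) matched 95% of gene IDs. The second deposited file, the share of X-linked reads from the M. musculus chromosome, was not used.

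limma 3.58.1 (R 4.3.3) was fitted on log2 of the normalized count plus 1, with a trended variance and no covariate, to the populations each comparison is about, after a filter that kept genes with a mean above 10 over the libraries of the fit. A prior count of 1 understates the change of low genes. Tests were two-sided, with Benjamini-Hochberg adjustment over all genes tested and a threshold of 0.1. edgeR 4.0.16 and DESeq2 1.42.0 on the recovered reads were alternatives, as were no filter, a pseudocount of 0.1, rescaling to equal totals, 1 fit over all libraries, a replicate block and leaving out each library. The test functions were tested, for 2 of the comparisons, on simulated data with 200 changed genes. Levels between genes are normalized counts per kilobase of merged exon. A gene with 3 reads or fewer in both libraries of a population was called at the floor, and floors cover counting error only. Of the context lists, the count called in each direction and the 3 genes with the highest mean were reported, except where a result is not reported here; genes of similar pattern were those with the highest Pearson r over population means among genes reaching 100. Further genes are named as chosen after their values were seen. The members and the lists were chosen with earlier results of these data known, so their changes are not independent support for any pattern.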

Additional observations from a re-analysis of the deposited data

Results flagged for a closer look

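In each of these cases the IFNγ effect in 1 X-GFP population differed from that in another by a test of the difference itself (limma interaction term, adjusted over all genes tested). Set against X-GFP-negative cells, the log2 effect in X-GFP-medium cells was larger for Tdh by 0.40 and for Tcl1 by 0.71, and for Lin28a the difference was -0.30. The Tdh call was lost after rescaling to equal totals (0.23; limma adjusted p = 0.118), and the Lin28a call without any one of 3 libraries (X-GFP-negative control 1 and both X-GFP-medium controls). For X-GFP-high minus X-GFP-medium cells it was -0.55 for Dppa2, -0.89 for Dppa3, -0.67 for Dppa4, -0.60 for Dppa5a, -0.46 for Tdh and -0.49 for Tcl1. For Dppa3 the effect had opposite signs in the populations compared. The 2 sets of differences share the X-GFP-medium libraries, so a deviation in 1 of those libraries enters both. No group held the 4 samples that a check for outlying libraries needs.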

How the results depend on the processing

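Over the 7 tests of IFNγ (5 against control and 2 differences of the effect), of 795 values of single members under the alternatives 685 kept their direction and side of the threshold, 62 lost a call, 18 gained one and 30 changed sign, all of the last for values that were not called. In the 10 other comparisons 64 calls were lost, 17 were gained and 12 values changed sign, 0 of them called. For every change below the cause was not tested, apart from the all-library fit, which takes the spread from all populations and so differs in construction. Between IFNγ and control at day 5, 0 members were called with no filter on low values, 0 in 1 fit over all libraries and 3 by DESeq2. Of all genes, these settings called 326 of 37315, 2500 of 16247 and 912 of 15133. With no filter, and with all genes called of 37315 in brackets, the counts were 5 in X-GFP-negative (5336) and 1 in X-GFP-high cells (1157). In control cells they were 4 for X-GFP-negative against day 5 (6040) and 4 for medium against negative (1934). In the IFNγ arm the count was 3 for high against medium (1372). For the difference of the IFNγ effect they were 1 for medium against negative (911) and 3 for high against medium (542). In 1 fit over all libraries, with all genes called of 16247 in brackets, they were 4 in X-GFP-negative (9475) and 1 in X-GFP-high cells (5645). For control and IFNγ X-GFP-high cells against ESCs they were 4 (11302) and 5 (10498), and for day 2 against NPCs 8 (11746). In control cells they were 4 for medium against negative (5569) and 4 for high against medium (8271). For the differences of the effect, medium against negative and high against medium, they were 0 (1565) and 0 (1055).

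Leaving out 1 library gave 0 to 1 calls at day 2, 0 to 3 at day 5 and 3 to 7 for the difference between high and medium cells. At day 2 the log2 difference then ran from -0.58 to 0.40 for Utf1, -0.44 to 0.19 for Tdh and -0.12 to 0.011 for Lin28a, and at day 5 from -0.31 to 0.076 for Dppa2, -0.10 to 0.30 for Tdh, -0.26 to 0.095 for Lin28a and -0.18 to 0.015 for Zscan10. Tcl1 in X-GFP-negative cells ran from -0.051 to 0.16. Lin28a in X-GFP-medium cells ran from -0.00093 to 0.024, and was -0.015 by edgeR and -0.026 by DESeq2. The difference of the IFNγ effect between medium and negative cells ran from -0.027 to 0.65 for Dppa2, -0.14 to 0.13 for Dppa5a and -0.15 to 0.085 for Zscan10 without 1 library, and for L1td1 was -0.025 after rescaling, which also took Tdh to 0.23 (limma adjusted p = 0.118). That between high and medium cells ran from -0.19 to 0.16 for L1td1, with 0.032 by edgeR and 0.030 by DESeq2.

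The replicate numbers are shared between groups but no source says what they mark, so the main fits did not pair libraries by them. Same-numbered libraries correlated in their deviations with r = 0.406 at day 2, 0.363 at day 5, 0.187, 0.107 and 0.0239 in X-GFP-negative, -medium and -high cells, and -0.146 for day 2 against NPCs. With the replicate block, 2 members were called at day 2 (Zscan10 higher, L1td1 lower) and 5 at day 5 (Dppa3, Dppa5a and Utf1 higher, L1td1 and Tcl1 lower). Over all genes, that fit called 2652 higher and 2343 lower of 15697 at day 2, and 1810 and 1569 of 15133 at day 5. In the other comparisons the count of members stayed within 1.5 times that of the main fit. Crossing the numbers for day 2 against NPCs, an alternative chosen after seeing the data, gave 5 calls, with 11299 of all 15738 genes called. Rescaling to equal totals moved the median of all genes by more than 0.1 for IFNγ in X-GFP-negative cells (0.157), ESCs against NPCs (-0.13), day 5 against day 2 (-0.126) and the difference of the effect between medium and negative cells (-0.164). Each group held 2 libraries, which limits the precision, and depth limits the values of members at the floor in NPCs and day 2 cells.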
